A study of Homo sapiens with 11 samples.

Results

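The receptors of epidermal growth factor (EGF), their ligands and 1 of their inhibitors were followed in ARPE-19, a human cell line that derives from the retinal pigment epithelium (RPE). The 10 genes were picked from the 60605 rows of the deposited table by gene symbol: the receptors EGFR, ERBB2 and ERBB3, the ligands AREG, EREG, HBEGF, TGFA, NRG1 and BTC, and the inhibitor ERRFI1. The 5 groups were stable ARPE-19 lines sampled 4 days into expression of an open reading frame for GFP (a fluorescent protein, the control; 3 libraries), Oct4, Sox2 or Klf4 (2 libraries each) or of Oct4, Sox2 and Klf4 together (OSK; 2 libraries). All lines were made from the same parental line, and the control lines differed in carrying GFP in place of a factor. The library names of the 4 factor lines carry the tag mC, which those of GFP do not and which the labels do not explain. Replicates are separate samples by their labels, and nothing says whether they came from separate cultures, so the p-values measure the spread between these samples, which may be technical.

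ERBB receptors are tyrosine kinases at the cell surface that pair when a ligand binds and then signal through the RAS-ERK and PI3K-AKT cascades. The ligands are made as membrane proteins and are released by ADAM proteases. EGFR binds TGFA and AREG. HBEGF, BTC and EREG bind EGFR and ERBB4. Neuregulin 1, the product of NRG1, binds ERBB3 and ERBB4, whereas ERBB2 has no known ligand of its own and ERBB3 has a weak kinase that relies on its partner. ERRFI1 (also called MIG6) binds the kinase domain of active EGFR, holds it inactive and is itself induced by ERK signalling. In the RPE, EGF signalling is known as a stimulus of proliferation and wound closure.

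Library totals ran from 15053300 to 19791775 reads. GFP replicate 1 had at least 1 read in 42956 features and OSK replicate 1 in 32493, against 25853 to 26971 in the other 9 libraries, so ERBB3, AREG, EREG and EGF, which had low levels, are given with and without them below. POU5F1 (Oct4), SOX2 and KLF4 were each far higher in the line labelled for them and in OSK than in the other lines, for example KLF4 at 22142 to 24205 normalised counts in the Klf4 line, 24202 to 24470 in OSK and 45.5 to 124 in GFP. Of 16 RPE markers, 13 reached 10 normalised counts in some library, and the defining gene RPE65 and the listed markers TTR and DCT did not. The summed level of the 16 markers was 13314 to 17626 in GFP and 4491 to 5274 in the Oct4 line. It was 2566 to 2623 in the Sox2 line, 8820 to 11009 in the Klf4 line and 5817 to 6240 in OSK. PMEL, MITF, TYRP1 and OTX2 were its largest parts in GFP (means of 5147, 3406, 2490.5 and 1881). Not every marker had a lower mean than in GFP. RDH5 averaged 75.1 in GFP, 189 in Oct4, 74.7 in Sox2, 462 in Klf4 and 178 in OSK. OTX2 averaged 1494 in Oct4, 1208 in Sox2, 2320 in Klf4 and 1969.5 in OSK. The part of this sum in the results below was not tested. Other marker sums moved too: 7 genes of simple epithelium summed to 23521 to 25176 in GFP, 18842 to 18853 in Oct4, 22836 to 23262 in Sox2, 21360 to 22516 in Klf4 and 12614 to 13518 in OSK. KRT8 and KRT18 were the largest parts of the epithelium sum in GFP (means of 15930 and 5307), and smaller parts differed from it. In GFP, Oct4, Sox2, Klf4 and OSK, TJP1 averaged 1913.5, 3873, 2202, 2443 and 2284. CLDN1 averaged 346, 290, 989, 787 and 285 in the same order, and CDH1 235, 272, 321, 203 and 59.4. In bulk RNA, fewer cells of a type and less RNA per cell cannot be told apart.

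Gene positions are on GRCh38 (GENCODE 29). Levels are normalised counts: the authors scaled the reads of a gene by 1 factor for each library. A gene was tested when it had at least 10 normalised counts in at least 2 libraries, which 8 of the 10 genes did; AREG and EREG did not. A gene is said to have risen, fallen or changed when its limma p-value, adjusted over the 18828 genes tested, was under 0.05. Against GFP, 3 of the 8 tested genes rose and 2 fell in the Oct4 line, 3 rose and 1 fell in the Sox2 line, 3 rose and 4 fell in the Klf4 line, and 4 rose and 3 fell in OSK. Among all genes tested, 20.1% rose and 17.2% fell in the Oct4 line, 21.7% and 19.9% in the Sox2 line, 17.6% and 16.0% in the Klf4 line, and 19.7% and 20.0% in OSK. In either direction the shares over all genes were 37.3%, 41.6%, 33.5% and 39.7%, so a call was common for any gene. These shares, and those of the comparisons below, include genes of low level and were not matched to the levels of the 8 genes. The median log2 change of the 8 genes was 0.06, 0.06, -0.24 and 0.52 in these 4 lines, beside -0.02, -0.02, -0.02 and -0.01 over all genes tested. After TMM scaling over all features, 4 genes passed in the Klf4 line (3 higher, 1 lower) in place of 7. Without Klf4 replicate 2 the Klf4 count was also 4 (3 higher, 1 lower), and without Oct4 replicate 2 the Oct4 count was 3 (2 higher, 1 lower). The 4 comparisons share the GFP libraries.

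**Figure D1:**
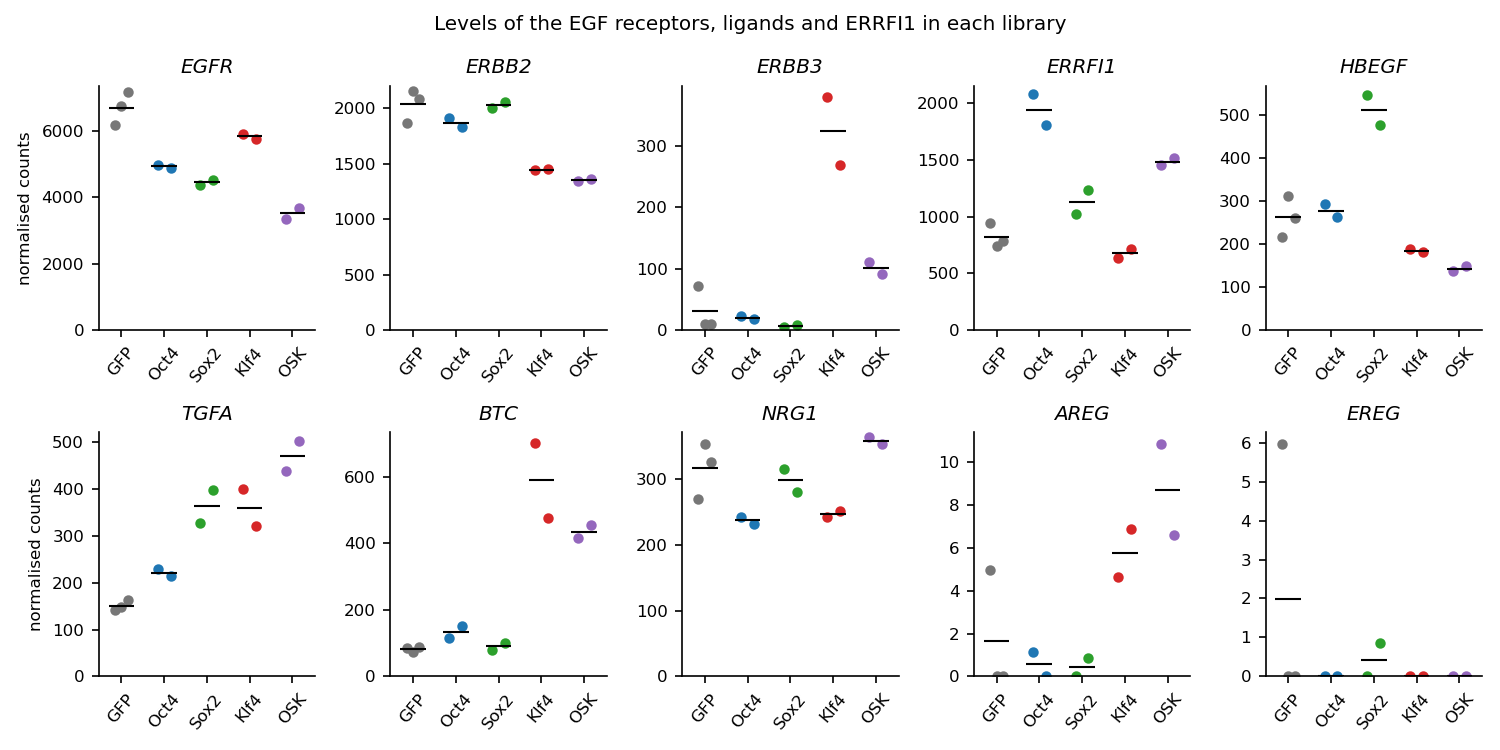
Normalised counts (y axis, from 0, a separate scale for each gene) of the 10 genes in the 11 libraries, by group on the x axis; points are libraries and bars are group means. EGFR is lowest in the OSK libraries (3358 and 3698), BTC is high in Klf4 and OSK, HBEGF is highest in Sox2, and EREG has a value above 0 in 2 libraries.

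EGFR (ENSG00000146648, chr7:55019021-55211628, plus strand), the main EGF receptor, was the receptor with the highest level and was lower in every factor line than in GFP. It had 6183, 6768 and 7176 normalised counts in the GFP libraries, 5927 and 5765 in Klf4, 4984 and 4889 in Oct4, 4379 and 4531 in Sox2, and 3358 and 3698 in OSK. The mean was 6709 ± 499 (SD, n = 3) in GFP and 3528 ± 240 (SD, n = 2) in OSK, and the libraries of no 2 groups overlapped. OSK had 52.6% of the GFP mean (log2 change -0.93, SE 0.07; limma's adjusted p = 4.29e-08). EGFR fell by less in the Sox2 line (log2 change -0.59, SE 0.07; limma's adjusted p = 5.91e-06) and in the Oct4 line (-0.44, SE 0.07; limma's adjusted p = 1.46e-04). Those 2 single-factor lines were neighbours in the order of levels and did not differ detectably (log2 difference 0.15, SE 0.08; limma's adjusted p = 0.171). The Klf4 value was the nearest to GFP, at 87.1% of its mean, and passed only narrowly (-0.20, SE 0.07; limma's adjusted p = 0.0462). The call was kept in 6 of 16 alternatives. Among these were the fit without GFP replicate 1 (-0.25, limma's adjusted p = 0.00313) and DESeq2 (-0.20, adjusted p = 0.0296). That Klf4 call did not pass with edgeR on recovered reads (adjusted p = 0.0819), after TMM scaling (limma's adjusted p = 0.448), in a fit of the compared groups alone (limma's adjusted p = 0.125) or with no filter (limma's adjusted p = 0.101), and edgeR with median-of-ratios factors gave an adjusted p of 0.0684. It also did not pass without GFP replicate 2 (-0.19, limma's adjusted p = 0.0958), GFP replicate 3 (-0.15, limma's adjusted p = 0.164), Klf4 replicate 1 (-0.22, limma's adjusted p = 0.121) or Klf4 replicate 2 (-0.18, limma's adjusted p = 0.202). In OSK, where EGFR was lowest, the simple epithelium sum given above was also lowest, as was that of 10 fibroblast and mesenchymal markers (11322 to 12434, against 21121 to 26013 in GFP; 9 of the 10 reached 10 in some library, and DCN did not). The fibroblast and mesenchymal sum was highest in Sox2, at 28533 to 30190. It was 20859 to 22994 in Oct4 and 16157 to 16290 in Klf4, where EGFR was nearest to GFP. The part of these marker sums in the EGFR and ERBB2 changes was not tested. An antisense gene, EGFR-AS1, lies on the opposite strand of EGFR, and the counting is not stated to use strand.

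ERBB2 (ENSG00000141736, chr17:39687914-39730426, plus strand), the receptor that acts as a partner of the others, fell in the lines that received Klf4. The GFP libraries had 1867, 2161 and 2088 normalised counts, the Klf4 libraries 1441 and 1449, and the OSK libraries 1349 and 1358. The Oct4 libraries, at 1914 and 1830, and the Sox2 libraries, at 1999 and 2053, overlapped the GFP range. The means were 2039 ± 153 (SD, n = 3) in GFP, 1445 ± 5.43 (SD, n = 2) in Klf4 and 1353 ± 6.96 (SD, n = 2) in OSK. ERBB2 was at 70.9% of the GFP mean in Klf4 (log2 change -0.49, SE 0.07; limma's adjusted p = 4.86e-05) and at 66.4% in OSK (-0.59, SE 0.07; limma's adjusted p = 5.69e-06). Klf4 and OSK did not differ detectably from each other (OSK minus Klf4 -0.09, SE 0.08; limma's adjusted p = 0.454). The change was -0.01 in the Sox2 line (SE 0.07; limma's adjusted p = 0.956) and -0.12 in the Oct4 line (SE 0.07; limma's adjusted p = 0.202). Without GFP replicate 1, the lowest GFP library for this gene, the Oct4 change was -0.18 and passed (limma's adjusted p = 0.0295). PGAP3 and MIEN1 overlap ERBB2 on the opposite strand in GENCODE, which adds the same uncertainty over strand.

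ERBB3 (ENSG00000065361, chr12:56076799-56103505, plus strand), the receptor that binds neuregulins with ERBB2 as partner, was a low transcript in GFP and rose in the Klf4 and OSK lines. The Klf4 libraries had 379 and 269 normalised counts and the OSK libraries 112 and 91.3. GFP replicate 1 had 72.5 whereas GFP replicates 2 and 3 had 10.1 and 9.72. The Oct4 libraries had 22.1 and 18.3 and the Sox2 libraries 5.61 and 8.56, resting on 5 to 19 reads each. The mean was 30.8 ± 36.1 (SD, n = 3) in GFP and 324 ± 78.4 (SD, n = 2) in Klf4. Klf4 was 10.5-fold above the GFP mean (log2 change 3.96, SE 0.60; limma's adjusted p = 8.33e-05), and OSK 3.30-fold (2.31, SE 0.60; limma's adjusted p = 0.00566). The folds compare group means. The log2 changes compare means of log values, on which GFP replicate 1 weighs less, and stand for larger ratios than these folds. Without GFP replicate 1 these log2 changes were 4.87 (limma's adjusted p = 1.27e-09) and 3.22 (limma's adjusted p = 2.05e-07), and without GFP replicate 1 and OSK replicate 1 together they were 4.87 (limma's adjusted p = 6.84e-07) and 3.08 (limma's adjusted p = 1.39e-04). The OSK call did not pass with DESeq2 (1.72, adjusted p = 0.108) or without OSK replicate 1 alone (2.16, limma's adjusted p = 0.0611). ERBB3 was lower in OSK than in Klf4 in every library, but the difference did not pass (log2 difference -1.65, SE 0.65; limma's adjusted p = 0.0895). With GFP replicate 1, whose distance from the other GFP libraries enters the shared estimate of spread, left out of the fit, the same difference passed (limma's adjusted p = 7.84e-04), as it did with edgeR on recovered reads (-1.67, adjusted p = 0.0214), after TMM scaling (limma's adjusted p = 0.0343), with a pseudocount of 10 (limma's adjusted p = 0.0342) and in a fit of the compared groups alone (limma's adjusted p = 8.96e-04). For the Oct4 line the change from GFP was 0.03 (SE 0.60; limma's adjusted p = 0.974), and 0.95 without GFP replicate 1 (limma's adjusted p = 0.0266). edgeR with TMM gave -0.60 there (adjusted p = 0.53), and the Oct4 mean was below the GFP mean, so the sign of this change was not the same in all tests. The Sox2 change was -1.37 (SE 0.60; limma's adjusted p = 0.0788), and -0.46 without GFP replicate 1 (limma's adjusted p = 0.284). It passed without GFP replicate 2 (-1.82, limma's adjusted p = 0.0258) or replicate 3 (-1.85, limma's adjusted p = 0.0255) and after TMM scaling (-1.30, limma's adjusted p = 0.0377).

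Some markers of stratified keratinocytes moved with ERBB3 and BTC in the Klf4 line. The summed level of the 7 listed markers was 562 to 591 normalised counts in GFP, 536 to 624 in Oct4, 536 to 555 in Sox2, 2452 to 2657 in Klf4 and 415 to 530 in OSK. The Klf4 sum was carried by KRT16 (a mean of 8.62 in GFP and 1303 in Klf4), SCEL (1.64 and 644) and KRT14 (4.30 and 129). KRT10, the largest part of the sum in GFP, had a mean of 530 there, 471 in Klf4 and 413 in OSK, and TP63 had 28.8, 6.33 and 4.94. In OSK KRT16 had a mean of 37.0 and SCEL 12.6, above GFP although the sum was not. The basal keratin KRT5 and the suprabasal keratin KRT1 were under 10 in all libraries, and 5 of the 7 markers reached 10 in some library. The marker levels were not tested, and neither was their part in the ERBB3 and BTC changes.

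Per kilobase of exon, which allows genes to be compared, the 3 receptors summed to 683 to 776 normalised counts in GFP, 630 to 655 in Klf4, 570 to 586 in Oct4, 544 to 562 in Sox2 and 411 to 437 in OSK. EGFR made up 72.0% to 73.8% of that sum in GFP and 64.3% to 64.4% in the Sox2 line. ERBB3 made up 4.71% to 6.41% in Klf4 and 2.31% to 3.00% in OSK, against 0.138% to 1.17% in GFP. Its share in Oct4 was 0.355% to 0.417%. The exon lengths are those of GENCODE 29 with all isoforms joined, so a gene with long rare exons is set too low.

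The ligands that bind EGFR did not move together. TGFA rose in all 4 lines, BTC in Oct4, Klf4 and OSK, and HBEGF rose with Sox2 but fell with Klf4 and OSK. TGFA (ENSG00000163235, chr2:70447280-70554193, minus strand), whose product is a ligand of EGFR alone, had 142, 149 and 162 normalised counts in GFP, 229 and 214 in Oct4, 328 and 398 in Sox2, 399 and 321 in Klf4, and 439 and 503 in OSK. The mean was 151 ± 10.4 (SD, n = 3) in GFP and 471 ± 45.0 (SD, n = 2) in OSK, and every factor library was above every GFP library. The rise was 3.12-fold over the GFP mean in OSK (log2 change 1.63, SE 0.13; limma's adjusted p = 4.81e-08). It was similar in size in the Sox2 line (log2 change 1.25, SE 0.13; limma's adjusted p = 8.31e-07) and the Klf4 line (1.24, SE 0.13; limma's adjusted p = 1.59e-06), whose libraries overlapped, and smaller in the Oct4 line (0.55, SE 0.13; limma's adjusted p = 0.00288). Those 4 calls passed under each of the alternatives run.

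BTC, which encodes betacellulin (ENSG00000174808, chr4:74744759-74794686, minus strand), showed the largest ligand change. GFP libraries had 85.4, 74.9 and 89.4 normalised counts, Klf4 libraries 701 and 476, and OSK libraries 414 and 454. The Oct4 libraries had 116 and 152, and the Sox2 libraries, at 80.8 and 102, overlapped GFP. The mean was 83.2 ± 7.52 (SD, n = 3) in GFP, 589 ± 159 (SD, n = 2) in Klf4 and 434 ± 28.4 (SD, n = 2) in OSK. BTC was 7.07-fold above the GFP mean in Klf4 (log2 change 2.78, SE 0.18; limma's adjusted p = 7.60e-09) and 5.22-fold in OSK (2.37, SE 0.18; limma's adjusted p = 2.84e-08). Both calls passed under each of the alternatives run. The Oct4 rise (0.67, SE 0.18; limma's adjusted p = 0.00682) did not pass without Oct4 replicate 2 (0.48, limma's adjusted p = 0.121), and the Sox2 change was 0.13 (SE 0.18; limma's adjusted p = 0.61). Klf4 replicate 1 was the highest library, and the OSK libraries were both below the 2 Klf4 libraries (OSK minus Klf4 -0.41, SE 0.19; limma's adjusted p = 0.155), a difference that passed without Klf4 replicate 2 (-0.69, limma's adjusted p = 0.0391).

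HBEGF (ENSG00000113070, chr5:140332843-140346631, minus strand), the ligand with a heparin-binding domain, was the only tested ligand called in opposite directions in different lines. It had 217, 312 and 261 normalised counts in GFP, 294 and 262 in Oct4, 548 and 478 in Sox2, 189 and 181 in Klf4, and 137 and 150 in OSK. The Sox2 libraries stood above and the Klf4 and OSK libraries below all others, while Oct4 lay within GFP. The mean was 264 ± 47.1 (SD, n = 3) in GFP and 513 ± 49.3 (SD, n = 2) in Sox2. Sox2 was 1.95-fold above the GFP mean (log2 change 0.97, SE 0.14; limma's adjusted p = 3.38e-05), and OSK was at 54.3% of it (-0.86, SE 0.14; limma's adjusted p = 1.16e-04). In the Klf4 line HBEGF was at 70.0% (-0.50, SE 0.14; limma's adjusted p = 0.0117). Without GFP replicate 1, the lowest GFP library for this gene, that change was -0.63 (limma's adjusted p = 0.00104). The Klf4 call did not pass after TMM scaling (-0.45, limma's adjusted p = 0.0602), without GFP replicate 2 (-0.37, limma's adjusted p = 0.0541) or without Klf4 replicate 2 (-0.47, limma's adjusted p = 0.0753).

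NRG1, the neuregulin that binds ERBB3 and ERBB4, had no log2 change from GFP beyond -0.40 in any line with all libraries in the fit. GFP libraries had 269, 354 and 327 normalised counts, Oct4 243 and 232, Sox2 315 and 281, Klf4 243 and 251, and OSK 364 and 353. The Oct4 and Klf4 libraries lay below all GFP libraries, and the OSK and Sox2 libraries overlapped them. NRG1 fell in Oct4 (log2 change -0.40, SE 0.12; limma's adjusted p = 0.0139) and in Klf4 (-0.35, SE 0.12; limma's adjusted p = 0.0346). Without GFP replicate 1, the lowest GFP library for this gene, both falls were larger (-0.52 and -0.46, limma's adjusted p = 0.00137 and 0.00396). Neither fall passed after TMM scaling (-0.36 and -0.30, limma's adjusted p = 0.0997 and 0.184) or without GFP replicate 2, the highest GFP library for this gene (-0.32 and -0.26, limma's adjusted p = 0.0626 and 0.133). The Oct4 call was also lost without Oct4 replicate 2 (-0.37, limma's adjusted p = 0.0914). The Klf4 call was also lost without GFP replicate 3 (-0.32, limma's adjusted p = 0.0929), Klf4 replicate 1 (-0.32, limma's adjusted p = 0.157) or Klf4 replicate 2 (-0.37, limma's adjusted p = 0.0955), by DESeq2 (-0.36, adjusted p = 0.085), without the low-value filter (limma's adjusted p = 0.0928) and in a fit of the compared groups alone (limma's adjusted p = 0.0856). The change was 0.19 in OSK (SE 0.12; limma's adjusted p = 0.236) and -0.08 in the Sox2 line (SE 0.12; limma's adjusted p = 0.635).

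AREG and EREG, ligands that are neighbours of BTC on the long arm of chromosome 4, were near the limit of detection. AREG had 33 reads in all 11 libraries together: 10 and 6 in OSK, 4 and 6 in Klf4, 5 in GFP replicate 1, and 0 or 1 in each of the others. The OSK libraries lay above GFP and the Klf4 libraries overlapped GFP replicate 1, the library with reads in the most features. With no filter, the AREG change in OSK was 2.39 on the log2 scale and did not pass (SE 0.98; limma's adjusted p = 0.171), nor did the 1.87 of Klf4 (SE 0.98; limma's adjusted p = 0.37). Without GFP replicate 1, which leaves GFP with 0 AREG reads in both libraries, OSK (3.25, SE 0.68; limma's adjusted p = 0.00706) and Klf4 (2.73, SE 0.68; limma's adjusted p = 0.023) passed. Without OSK replicate 1 as well they also passed (2.93 and 2.73, limma's adjusted p = 0.0358 and 0.0258). These fitted changes start from 0 reads, depend on the pseudocount and give no fold. EREG had 7 reads, of which 6 were in GFP replicate 1 and 1 in Sox2 replicate 2. With no filter its change from GFP was -0.93 in Oct4, Klf4 and OSK and -0.49 in Sox2 (limma's adjusted p = 0.545 to 0.684), and without GFP replicate 1 it was 0.00 and 0.45 (limma's adjusted p = 0.527 to 1). A library with 0 reads still allows up to 3, so a difference in EREG was not detectable at this depth.

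**Figure D2:**
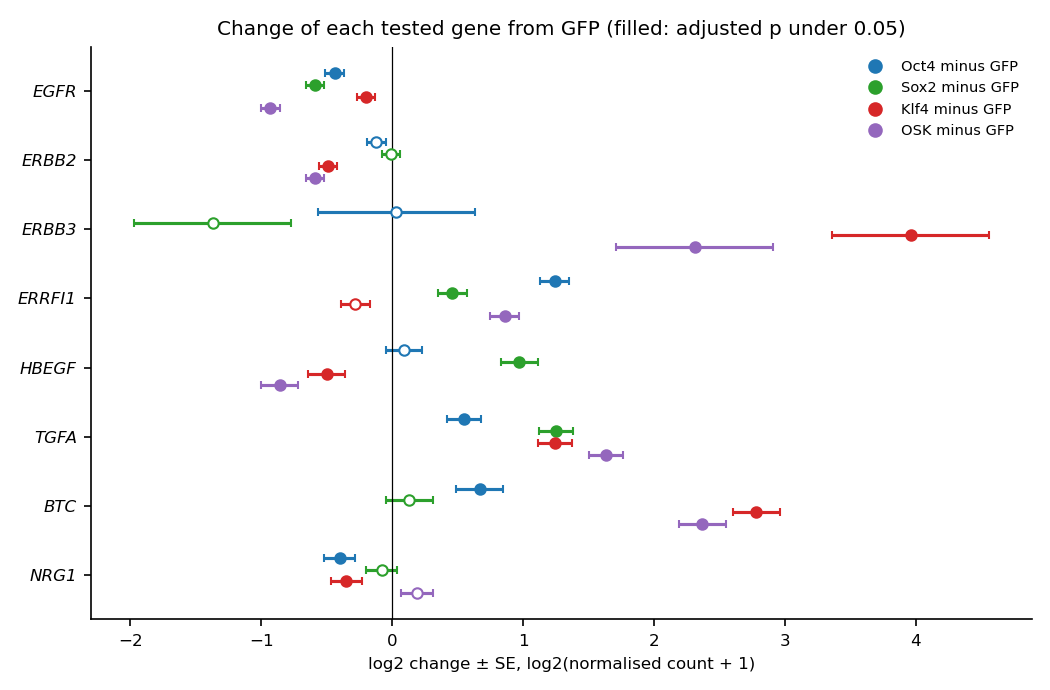
Log2 change from GFP (x axis, on the log2(normalised count + 1) scale) of the 8 tested genes on the y axis, one point per factor line with its SE; filled points passed limma at an adjusted p under 0.05 and open points did not. EGFR lies to the left of 0 and TGFA to the right in all 4 lines, whereas HBEGF lies at 0.97 in Sox2 and -0.86 in OSK; the bars of ERBB3 are wide, with an SE of 0.60.

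The DNA just before the start of 4 genes is shown because they moved differently: BTC and TGFA rose with Klf4 and OSK, HBEGF fell, and EGFR was lowest in OSK. Each is the 250 bases before the RefSeq gene start, 5′ to 3′ on the strand of the gene, from the RefSeq promoter table (GRCh38.p14). Windows of 8 of the 10 genes were used, 1 for each gene. EGFR and TGFA had 2 entries each in the RefSeq promoter table, and only that nearest to the outermost GENCODE start was searched. ERBB3 had no entry there, and NRG1 was left out before the search, so the motif results below do not cover these genes. Capitals mark CACCC boxes (CACCC or its reverse GGGTG, a sequence that KLF proteins are known to bind) and GC boxes (GGGCGG or CCGCCC).
BTC, chr4:74794524-74794773, minus strand: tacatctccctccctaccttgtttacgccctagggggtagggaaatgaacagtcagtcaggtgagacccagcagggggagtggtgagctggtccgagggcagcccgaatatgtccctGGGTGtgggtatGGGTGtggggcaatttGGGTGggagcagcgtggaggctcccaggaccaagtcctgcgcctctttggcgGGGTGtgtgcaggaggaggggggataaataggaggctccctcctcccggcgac
TGFA, chr2:70553827-70554076, minus strand: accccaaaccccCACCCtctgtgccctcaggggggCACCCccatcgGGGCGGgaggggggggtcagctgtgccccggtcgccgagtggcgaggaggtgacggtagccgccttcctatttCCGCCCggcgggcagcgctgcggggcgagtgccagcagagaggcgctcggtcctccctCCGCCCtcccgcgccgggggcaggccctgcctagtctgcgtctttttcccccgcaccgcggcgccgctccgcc
HBEGF, chr5:140346604-140346853, minus strand: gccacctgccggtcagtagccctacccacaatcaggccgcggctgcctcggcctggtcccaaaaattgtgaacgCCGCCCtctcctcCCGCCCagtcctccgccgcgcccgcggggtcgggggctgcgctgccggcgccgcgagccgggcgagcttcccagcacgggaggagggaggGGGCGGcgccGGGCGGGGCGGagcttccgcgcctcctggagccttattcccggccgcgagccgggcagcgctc
EGFR, chr7:55018767-55019016, plus strand: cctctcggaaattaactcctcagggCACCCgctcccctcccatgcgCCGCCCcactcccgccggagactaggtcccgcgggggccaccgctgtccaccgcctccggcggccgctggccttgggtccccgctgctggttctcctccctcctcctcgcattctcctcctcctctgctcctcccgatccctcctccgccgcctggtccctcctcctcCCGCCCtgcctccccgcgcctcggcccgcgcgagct
The BTC window held 4 CACCC boxes, which began 133, 121, 105 and 53 bases before the gene start, all in the GGGTG orientation, and no GC box. Of 35116 promoter windows of the same length, 54.7% held at least 1 CACCC box and 2.91% at least 4. TGFA held 2 CACCC boxes and 3 GC boxes, EGFR 1 and 2, and HBEGF 0 and 5. In the same order, the windows not printed held 1 and 1 (AREG), 1 and 0 (EREG), 0 and 1 (ERRFI1) and 0 and 0 (ERBB2). At least 5 GC boxes were found in 4.15% of windows and at least 1 in 42.6%, and 2 of the 5 in HBEGF overlapped each other. G and C made up 76.4% of the HBEGF window, 75.6% of TGFA, 73.6% of EGFR and 62.0% of BTC. The median over all windows was 58.0% (upper quartile 68.0%), so the shares over all windows are not matched for base content. None of the 8 windows searched held the octamer ATTTGCAT (1.6% of all windows), the SOX core CATTGT (9.3%) or the AP-1 site TGACTCA (4.2%), each searched on both strands. The outermost GENCODE start of BTC lies 163 bases from the RefSeq start and that of TGFA 367 bases, which places the former within the printed window and the latter before it. By those GENCODE starts, the 4 CACCC boxes of BTC and the whole TGFA window lie inside the gene. Whether a factor binds these windows was not tested, and neither was the part of the motifs in the changes.

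Per kilobase of exon, the 6 ligand transcripts summed to 159 to 191 normalised counts in GFP, 205 to 207 in Oct4, 300 to 304 in Sox2, 320 to 416 in Klf4 and 320 to 347 in OSK. HBEGF was the largest part in GFP, at 45.4% to 54.0%, and in Sox2, at 52.7% to 59.7%. BTC was the largest part in Klf4, at 52.9% to 59.8%, and in OSK, at 46.0% to 46.4%, against 13.9% to 19.1% in GFP. In the Oct4 line HBEGF remained first at 42.5% to 47.1%. HBEGF had 15.0% to 18.7% in Klf4 and 14.2% to 14.3% in OSK. TGFA ran from 15.7% to 18.2% in GFP and from 27.7% to 29.2% in OSK, and AREG reached at most 2.06% in a library, OSK replicate 1.

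**Figure D3:**
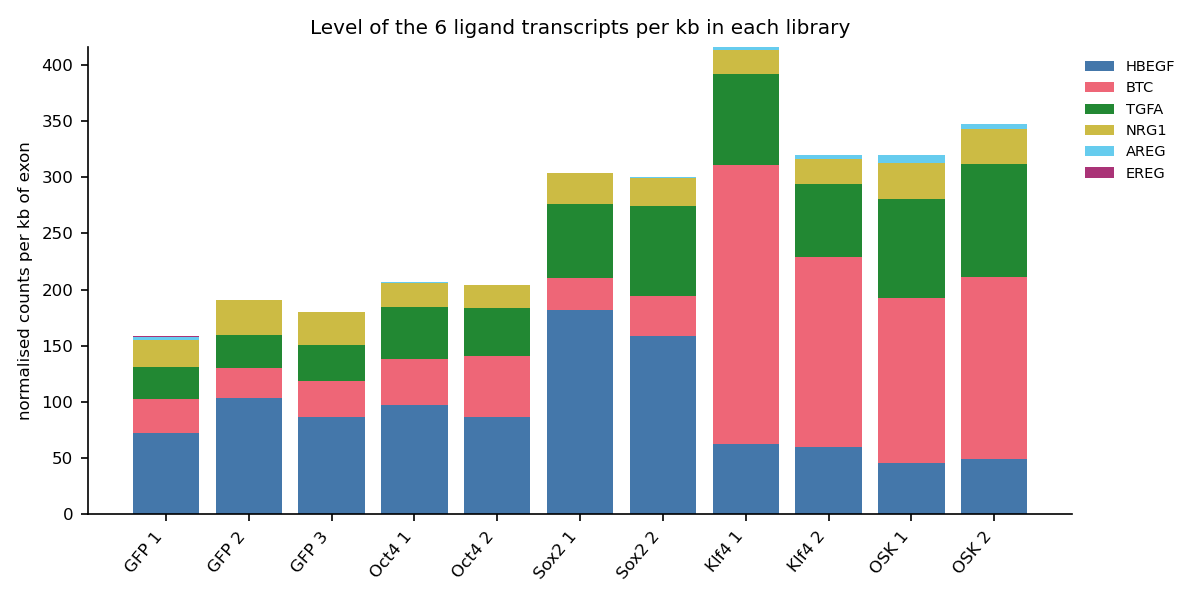
Level of the 6 ligand transcripts in normalised counts per kilobase of exon (y axis, from 0) in each of the 11 libraries (x axis), stacked by gene. The HBEGF segment is the largest in GFP, Oct4 and Sox2 libraries, and the BTC segment is the largest in both Klf4 and both OSK libraries.

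ERRFI1 (ENSG00000116285, chr1:8004404-8026308, minus strand), the inhibitor of EGFR, rose where Oct4 or Sox2 was delivered and was lowest in the Klf4 line. It had 945, 743 and 783 normalised counts in GFP, 2082 and 1808 in Oct4, 1028 and 1236 in Sox2, 633 and 719 in Klf4, and 1454 and 1520 in OSK. The libraries of no 2 groups overlapped. The mean was 823 ± 107 (SD, n = 3) in GFP and 1945 ± 193 (SD, n = 2) in Oct4. The Oct4 line was 2.36-fold above the GFP mean (log2 change 1.24, SE 0.11; limma's adjusted p = 1.94e-07), OSK 1.81-fold (0.86, SE 0.11; limma's adjusted p = 9.86e-06) and Sox2 1.37-fold (0.46, SE 0.11; limma's adjusted p = 0.00271). The Sox2 rise did not pass without Sox2 replicate 2 (0.33, limma's adjusted p = 0.0756). In Klf4 the change was -0.28 (SE 0.11, limma's adjusted p = 0.0594). It passed without GFP replicate 2 (-0.35, limma's adjusted p = 0.0295) and among genes with a mean of at least 100 (limma's adjusted p = 0.0469). The other alternatives did not call it. Without GFP replicate 1, the highest GFP library for this gene, it was -0.18 (limma's adjusted p = 0.17), and after TMM scaling -0.24 (limma's adjusted p = 0.168).

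The combination of factors was next compared with each factor alone. Against the Oct4 line all 8 tested genes differed, 4 higher and 4 lower, where 18.4% of all genes were higher and 21.9% lower (40.3% in either direction). Against the Sox2 line 4 were higher and 3 lower, where 20.0% and 20.5% of all genes were (40.5% in all). Against the Klf4 line 2 were higher and 1 lower, where 9.56% and 11.9% were (21.5% in all). With GFP replicate 1 left out of the fit, 6 differed from the Klf4 line (3 higher, 3 lower). These 3 comparisons share the OSK libraries.

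EGFR was lower in OSK than in each single line, with log2 differences of -0.49 from Oct4 (SE 0.08; limma's adjusted p = 1.14e-04), -0.34 from Sox2 (SE 0.08; limma's adjusted p = 0.00258) and -0.73 from Klf4 (SE 0.08; limma's adjusted p = 4.61e-06). The difference from Sox2 just missed the threshold without OSK replicate 1 (-0.27, limma's adjusted p = 0.0515). BTC and ERBB3 were higher in OSK than in Oct4 and Sox2, BTC by 1.70 (SE 0.19; limma's adjusted p = 3.17e-06) and 2.24 (SE 0.19; limma's adjusted p = 1.37e-07), ERBB3 by 2.27 (SE 0.65; limma's adjusted p = 0.0109) and 3.68 (SE 0.65; limma's adjusted p = 2.79e-04). The ERBB3 difference from Oct4 did not pass without Oct4 replicate 2 (2.14, limma's adjusted p = 0.0701) or OSK replicate 1 (2.13, limma's adjusted p = 0.0779). ERBB2 was lower in OSK than in Oct4 (-0.47, SE 0.08; limma's adjusted p = 1.40e-04) and Sox2 (-0.58, SE 0.08; limma's adjusted p = 1.57e-05). HBEGF was furthest apart from the Sox2 line (-1.83, SE 0.15; limma's adjusted p = 9.36e-08) and was also below Oct4 (-0.95, SE 0.15; limma's adjusted p = 1.07e-04). From Klf4 it differed by -0.37 (SE 0.15; limma's adjusted p = 0.108), which passed with GFP replicate 1 left out (limma's adjusted p = 0.049).

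TGFA was 1.08 higher in OSK than in Oct4 on the log2 scale (SE 0.14; limma's adjusted p = 1.20e-05). Its differences from Sox2 (0.38, SE 0.14; limma's adjusted p = 0.0413) and Klf4 (0.39, SE 0.14; limma's adjusted p = 0.0589) lay on either side of the threshold. The Sox2 difference was lost with DESeq2 (0.37, adjusted p = 0.0896), after TMM scaling (0.34, limma's adjusted p = 0.148), with no filter (limma's adjusted p = 0.11), and without Sox2 replicate 1 (0.24, limma's adjusted p = 0.322), OSK replicate 1 (0.48, limma's adjusted p = 0.0546) or OSK replicate 2 (0.28, limma's adjusted p = 0.253). The Klf4 difference passed without Klf4 replicate 1 (0.55, limma's adjusted p = 0.0377) or GFP replicate 1 (limma's adjusted p = 0.0414), and among genes with a mean of at least 100 (limma's adjusted p = 0.0435). NRG1 was higher in OSK than in Oct4 (0.59, SE 0.13; limma's adjusted p = 0.00167) and Klf4 (0.54, SE 0.13; limma's adjusted p = 0.00711). The latter was lost without Klf4 replicate 1 (0.51, limma's adjusted p = 0.0536) or OSK replicate 1 (0.51, limma's adjusted p = 0.0556). From Sox2 NRG1 differed by 0.27 (SE 0.13; limma's adjusted p = 0.118). ERRFI1 in OSK lay between the single lines: below Oct4 (-0.38, SE 0.12; limma's adjusted p = 0.0167), above Sox2 (0.40, SE 0.12; limma's adjusted p = 0.0136) and above Klf4 (1.14, SE 0.12; limma's adjusted p = 3.34e-06). The Oct4 difference was lost with no filter (limma's adjusted p = 0.0586) and without Oct4 replicate 1 (-0.28, limma's adjusted p = 0.163), OSK replicate 1 (-0.35, limma's adjusted p = 0.103) or OSK replicate 2 (-0.42, limma's adjusted p = 0.0561), and the Sox2 difference without Sox2 replicate 1 (0.27, limma's adjusted p = 0.178) or OSK replicate 2 (0.37, limma's adjusted p = 0.0901).

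Among the single-factor lines, 2 of the 8 tested genes were higher and 2 lower in Oct4 than in Sox2, where 18.0% and 15.4% of all genes were (33.4% in all). Between Oct4 and Klf4, 3 were higher and 4 lower in Oct4, where 21.8% and 20.0% of all genes were (41.7% in all). Between Sox2 and Klf4, 3 were higher and 3 lower in Sox2, where 20.1% and 20.7% of all genes were (40.8% in all). The widest gaps lay between Klf4 and the others. ERBB3 was lower in Sox2 than in Klf4 by a log2 difference of -5.33 (SE 0.65; limma's adjusted p = 6.28e-06), and BTC by -2.66 (SE 0.19; limma's adjusted p = 1.59e-08). HBEGF was higher in Sox2 than in Klf4 by 1.47 (SE 0.15; limma's adjusted p = 1.02e-06), and ERRFI1 was higher in Oct4 than in Klf4 by 1.52 (SE 0.12; limma's adjusted p = 3.63e-08). TGFA was not told apart in Sox2 and Klf4 (0.01, SE 0.14; limma's adjusted p = 0.957), nor NRG1 in Oct4 and Klf4 (-0.06, SE 0.13; limma's adjusted p = 0.773).

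**Figure D4:**
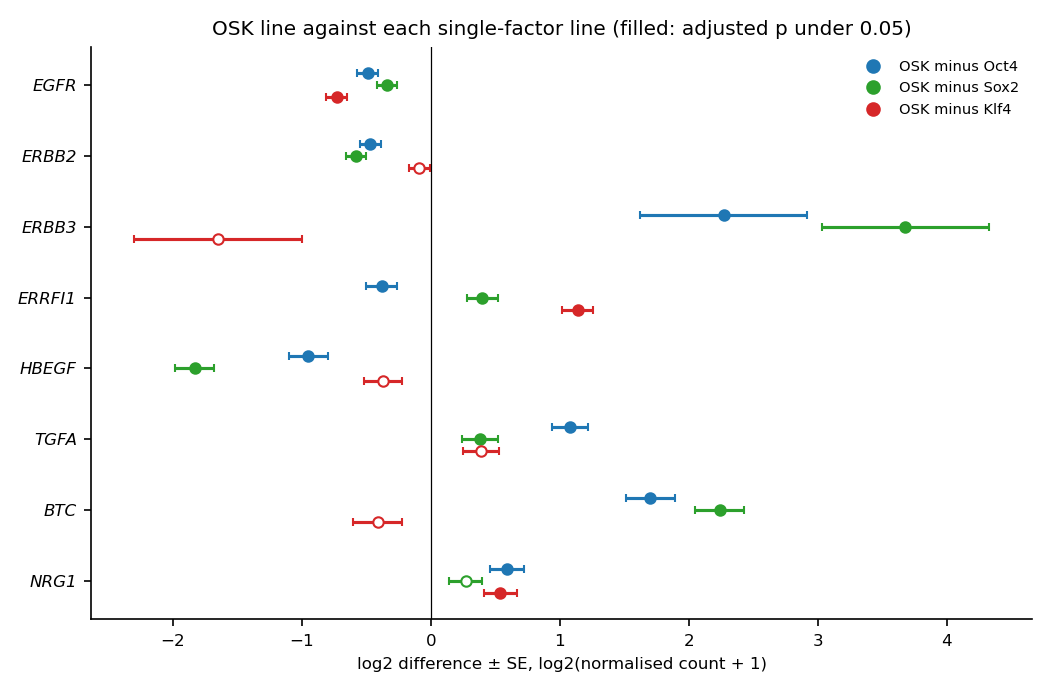
Log2 difference between OSK and each single-factor line (x axis, on the log2(normalised count + 1) scale) for the 8 tested genes on the y axis, with SE; filled points passed limma at an adjusted p under 0.05. EGFR is to the left of 0 against all 3 lines, HBEGF is at -1.83 against Sox2, and 3 of the 8 points against Klf4 are filled.

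Other genes of the pathway were taken from a list of 94, of which 90 were tested. In the Oct4 line 38 rose and 18 fell, in Sox2 44 and 20, in Klf4 28 and 28, and in OSK 33 and 27, with medians of 0.17, 0.24, -0.03 and 0.04 on the log2 scale. These are 62.2%, 71.1%, 62.2% and 66.7% of the 90, beside 37.3%, 41.6%, 33.5% and 39.7% of all genes tested, whose medians were -0.02, -0.02, -0.02 and -0.01. The genes were listed as known pathway genes with earlier results in view, and no test of the list was made. All genes tested include genes of low level, which are harder to call, and the shares were not matched for level. A higher share in the list can thus reflect the level of its genes. The fourth receptor, ERBB4, fell from 3155 normalised counts in GFP to 1008 in Oct4 (log2 change -1.65, SE 0.11; limma's adjusted p = 1.23e-08) and 803 in Sox2 (-1.97, SE 0.11; limma's adjusted p = 1.12e-09). It was also lower in OSK at 1336 (-1.23, SE 0.11; limma's adjusted p = 2.95e-07) and in Klf4 at 2480 (-0.34, SE 0.11; limma's adjusted p = 0.0288), values given after they were seen. EGF itself stayed low, at 14.5 normalised counts on average in GFP and 51.3 in OSK (1.90, SE 0.43; limma's adjusted p = 0.00229), also named after its values were seen. Without GFP replicate 1 the EGF change in OSK was 2.34 (limma's adjusted p = 7.91e-05), and those in Sox2 and Klf4 went from 0.89 and 0.82 (limma's adjusted p = 0.119 and 0.168) to 1.33 and 1.26 (limma's adjusted p = 0.00985 and 0.0167). Without OSK replicate 1 as well the OSK change was 2.26 (limma's adjusted p = 0.00332). Of 10 genes listed for ligand shedding, 4 rose and 3 fell in Oct4, 7 and 2 in Sox2, 6 and 2 in Klf4, and 3 and 2 in OSK. These are 70%, 90%, 80% and 50% of the 10 beside 37.3%, 41.6%, 33.5% and 39.7% of all genes. The 10 include both proteases and the inhibitor TIMP3, so these counts do not measure shedding. The membrane protease ADAM19 went from 184 to 6622 normalised counts in Oct4 (5.17, SE 0.09; limma's adjusted p = 4.58e-15), and ADAM15 from 2623 to 18320 in Klf4 (2.81, SE 0.10; limma's adjusted p = 1.10e-11) and 10490 in OSK (2.00, SE 0.10; limma's adjusted p = 2.54e-10). ADAM19 also rose in Sox2 (2.43, SE 0.09) and fell in Klf4 (-0.30, SE 0.09), and ADAM15 fell in Oct4 (-0.37, SE 0.10), with limma's adjusted p-values of at most 0.0167. TIMP3, an inhibitor of such proteases, fell from 34440 to 6824 in Sox2 (-2.34, SE 0.07; limma's adjusted p = 1.60e-12). It also fell in Oct4 (-1.26, SE 0.07; limma's adjusted p = 2.08e-09) and OSK (-0.38, SE 0.07; limma's adjusted p = 6.23e-04), but rose to 63360 in Klf4 (0.88, SE 0.07; limma's adjusted p = 1.70e-07).

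Among 15 tested genes listed under receptor restraint, 9 rose and 1 fell in Oct4, 9 and 4 in Sox2, 4 and 4 in Klf4, and 9 and 3 in OSK (66.7%, 86.7%, 53.3% and 80% called). The list holds CBL ubiquitin ligases and LRIG proteins but also the deubiquitinase USP8, so these counts do not measure restraint. Of 36 tested adaptors and cascade kinases, 14 rose and 5 fell in Oct4, 14 and 7 in Sox2, 11 and 9 in Klf4, and 12 and 11 in OSK (52.8%, 58.3%, 55.6% and 63.9% called). Examples were PIK3R3, a regulatory subunit of PI3K, in Sox2 (log2 change 2.84, SE 0.17; limma's adjusted p = 2.35e-09) and the scaffold KSR1 in Klf4 (1.44, SE 0.14; limma's adjusted p = 1.22e-06). PIK3R3 also rose in Klf4 (0.73, SE 0.17) and OSK (0.95, SE 0.17), and KSR1 rose in OSK (1.73, SE 0.14) and fell in Sox2 (-0.41, SE 0.14), with limma's adjusted p-values of at most 0.0324. Of 25 genes that ERK signalling is known to induce, 11 rose and 8 fell in Oct4, 13 and 6 in Sox2, 6 and 12 in Klf4, and 6 and 10 in OSK (76%, 76%, 72% and 64% called). The shares called among all genes in these 4 lines, not matched for level, were 37.3%, 41.6%, 33.5% and 39.7%. DUSP6, a phosphatase of ERK, rose in Oct4 (2.97, SE 0.13; limma's adjusted p = 8.62e-11) and Sox2 (3.75, SE 0.13; limma's adjusted p = 4.72e-12), and by less in OSK (0.70, SE 0.13; limma's adjusted p = 4.44e-04). PHLDA1 rose in all 4 lines, by 3.95 in Oct4, 1.54 in Sox2, 0.97 in Klf4 and 2.64 in OSK (SE 0.15), with limma's adjusted p-values of at most 8.33e-05. PLAUR, the urokinase receptor, rose in Klf4 (2.75, SE 0.21), OSK (2.15, SE 0.21) and Sox2 (1.12, SE 0.21), with limma's adjusted p-values of at most 4.48e-04. The early transcription factors EGR1 and FOS fell in all 4 lines. EGR1 changed by -2.51 in Oct4, -1.49 in Sox2, -4.14 in Klf4 and -3.62 in OSK (SE 0.22), and FOS by -2.55, -1.82, -1.31 and -0.89 (SE 0.16), with limma's adjusted p-values of at most 2.67e-04. FOSL1 fell in Oct4 (-1.48, SE 0.19), Klf4 (-2.28, SE 0.19) and OSK (-1.77, SE 0.19), with limma's adjusted p-values of at most 1.66e-05, and its change in Sox2 was -0.44 (SE 0.19; limma's adjusted p = 0.0801). The genes of this group thus moved in both directions in each line.

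**Figure D5:**
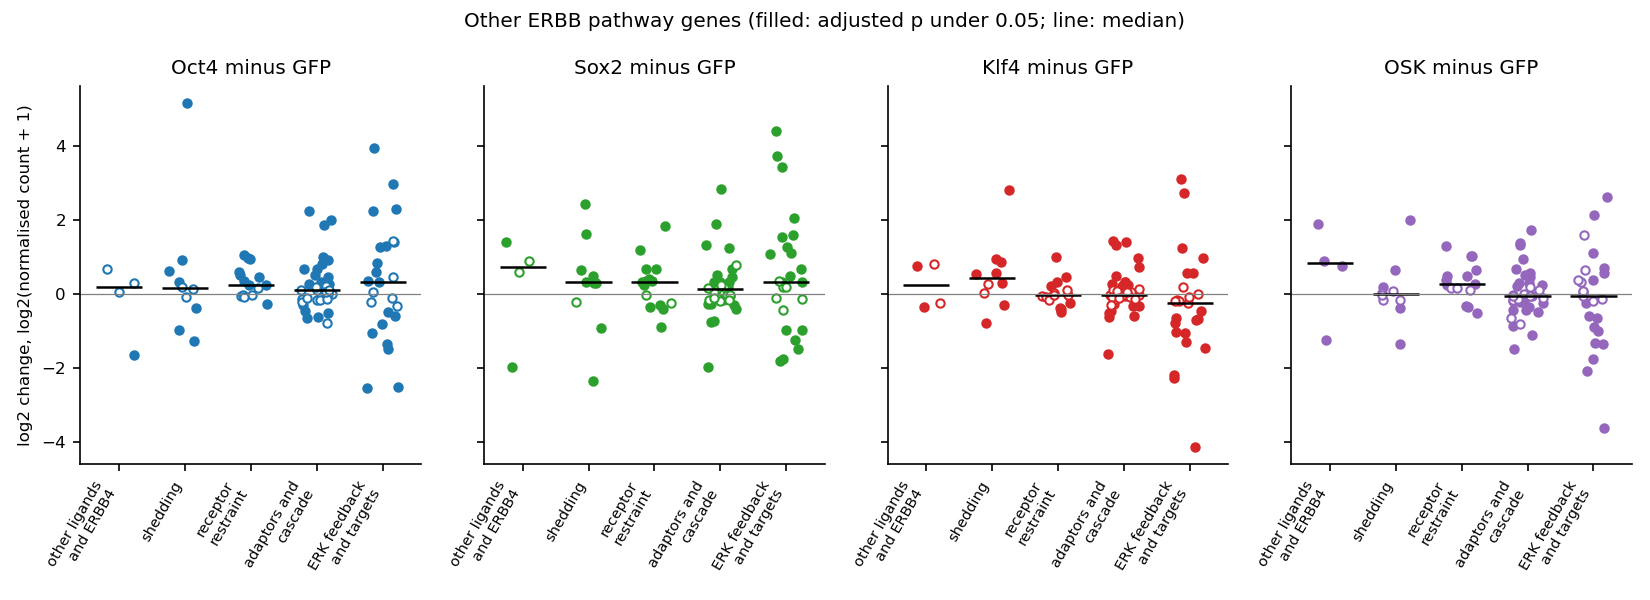
Log2 change from GFP (y axis, on the log2(normalised count + 1) scale) of the 90 tested pathway genes by class (x axis) in the 4 factor lines; filled points passed limma at an adjusted p under 0.05, bars are class medians and horizontal scatter has no meaning. ADAM19 stands at 5.17 in the Oct4 panel and EGR1 at -4.14 in the Klf4 panel.

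The genes whose log2 levels were most like those of a receptor or ligand over the 11 libraries were looked up among 11667 genes with a mean of at least 100 normalised counts in some group. For EGFR they were GRAMD4 (Pearson r = 0.989) and GPC1 (0.986), and GPC1, a cell-surface heparan sulphate proteoglycan, averaged 4955 normalised counts in GFP and 1419 in OSK. For HBEGF they were NOX4 (0.989), an oxidase that makes hydrogen peroxide, at 985 in GFP and 2159 in Sox2, and SCD (0.987). For ERBB3 they were TRIM7 (0.967) and ZBTB7C (0.963), with 122 and 120 normalised counts in Klf4. For NRG1 they were TOR1A (0.958) and GATAD2A (0.926). The libraries share their groups, so these values describe the pattern and were not tested.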

How the data were processed

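PolyA RNA was sequenced by the submitters from 11 libraries of ARPE-19 lines. The submitters' processing notes name STAR 2.7.1a and featureCounts 1.6.2 and human and mouse builds (GRCh38/hg38, GRCm38/mm10). Strand use, annotation and the scaling method are not given in the sources used here. From the values, the signal the authors deposited is gene counts divided by a factor per library and rounded. Every value up to 200 was a whole multiple of 1 read (tolerance 0.1 reads), as were at least 99.892% of all nonzero values. In GFP replicates 1 and 2 that step is near 1 and rests on their higher values.

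limma 3.58.1 (R 4.3.3, lmFit, eBayes with trend) was fitted to log2(value + 1) for 18828 genes with at least 10 in at least 2 libraries. All groups were in 1 fit (6 residual and 9.21 prior degrees of freedom), with Benjamini-Hochberg adjustment. The added 1 makes changes of low genes smaller. limma's log2 changes are differences between means of log values and need not match the folds of group means, as for ERBB3. The procedure was checked on simulated data with the same dispersion for every gene. No simulated library was unlike its group, so the check does not cover a library such as GFP replicate 1. edgeR 4.0.16 and DESeq2 1.42.0 were run on recovered reads as alternatives, with other scalings, pseudocounts (0.5, 10), filters, a replicate block and left-out libraries. Gene lists came from general knowledge; named pathway genes were for each comparison with GFP, those with the 3 greatest rises and the 3 greatest falls that passed, did not overlap and averaged at least 100 in either group; for EGFR, ERBB3, HBEGF and NRG1 the 2 genes of highest Pearson r. A gene that the rule picks is not reported here. The genes and lists were chosen with earlier results of these data known. Fits without GFP replicate 1 beyond the GFP comparisons, or without it and OSK replicate 1, and those of AREG, EREG and EGF without these libraries, were added after seeing the data. Exon lengths are from GENCODE 29 and promoters from RefSeq. Counting intervals were not used; depth per library is given in the report.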

Additional observations from a re-analysis of the deposited data

How the results depend on the processing

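No called value of the 8 tested genes changed sign under the alternatives run: 1157 values kept their sign and their side of the threshold, 21 changed sign while not past the threshold in either fit (8 of them ERBB3 in Oct4 against GFP and 6 ERBB2 in Sox2 against GFP), 65 no longer passed and 27 newly passed, with the causes not tested. In the Klf4 comparison with GFP, 4 of the 8 genes passed after TMM scaling over all features in place of 7, and 4 to 7 when 1 library was left out. In the Oct4 comparison 3 to 7 passed in place of 5 when 1 library was left out, and in OSK against Klf4 2 to 6 in place of 3, with 6 when GFP replicate 1 was left out of the fit, an alternative chosen after seeing the data. Over all genes, OSK against Klf4 gave 2519 to 4905 calls in place of 4049 when 1 library was left out; the lowest count was without OSK replicate 2 and the highest, added after seeing the data, without GFP replicate 1. The replicate number does not pair the samples: the difference between replicates 1 and 2 correlated across 18828 genes at 0.412 between GFP and OSK and at -0.0693 to 0.0418 between the other groups. With the replicate number as a block, 4, 5, 5 and 7 genes passed against GFP in Oct4, Sox2, Klf4 and OSK, and 8, 6 and 3 in OSK against Oct4, Sox2 and Klf4. The block ended the calls of EGFR in Klf4 (-0.15, limma's adjusted p = 0.18), NRG1 in Oct4 (-0.38, limma's adjusted p = 0.0559) and Klf4 (-0.32, limma's adjusted p = 0.109), TGFA in OSK against Sox2 (0.38, limma's adjusted p = 0.0583) and BTC in Oct4 against Sox2 (0.55, limma's adjusted p = 0.06), and ERBB3 in Sox2 passed with it (-1.85, limma's adjusted p = 0.0187). TMM scaling moved the median of all genes by at most 0.08 on the log2 scale. Depth limits AREG and EREG, whose levels did not pass the filter and whose fits with no filter rest on 33 and 7 reads, and ERBB3 outside Klf4 and OSK.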
